A study of Mus musculus with 3 samples.

Results

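The killer-cell lectin-like receptors (Klr genes) are a family of type II membrane proteins with a C-type lectin-like domain that natural killer (NK) cells and some T cells use to read class I molecules and stress ligands on other cells. The members were the genes whose symbol starts with Klra, Klrb, Klrc, Klrd, Klre, Klrg, Klri or Klrk, pseudogenes left out, which gave 26 of the 28692 genes in the count tables. They were followed in 3 droplet single-cell RNA libraries of 1 group: viable (DAPI-negative) CD45-positive cells sorted from mouse mammary tumours that were grown from 2208L cells, a mouse mammary tumour line, for 4 weeks to a diameter of 0.7 to 1 cm. No treatment or genotype of the host is given in the labels, there is no untreated or tumour-free group, and the labels do not say whether the 3 libraries came from separate animals, so every p-value speaks for these samples only. The labels call the cells tumour although they were sorted on a leukocyte marker, and they give a 5′ kit in 1 place and a 3′ procedure in another. All comparisons were therefore made between classes of cell barcodes within the libraries.

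The family divides by role. CD94, encoded by Klrd1, pairs with the NKG2 chains of the Klrc genes: the pair with NKG2A (Klrc1) inhibits, and the pair with NKG2C (Klrc2) activates through the adaptor DAP12 (Tyrobp). NKG2D, encoded by Klrk1, is an activating receptor for stress-induced ligands and signals through DAP10 (Hcst) and DAP12. The Ly49 receptors of the Klra genes bind class I molecules and take the place that killer-cell immunoglobulin-like receptors have in humans, and each NK cell carries only some of them. The Klrb1 genes encode NKR-P1 receptors for Clec2 proteins, Klre1 pairs with Klri1 or Klri2, and Klrg1 binds cadherins.

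Classes were set by transcripts. A barcode counted as NK with an Ncr1 UMI (a unique molecular identifier, counting 1 captured transcript) and none of Cd3e, Cd8a, Cd4 or Foxp3, and T-cell classes were set by Cd3e with Cd8a, Cd4 or Trdc, or by Foxp3 for regulatory T cells. This gave 309 NK, 731 CD8, 131 conventional CD4, 48 regulatory and 562 gamma-delta T barcodes, with 71, 185 and 53 NK barcodes in replicates 1, 2 and 3. Ncr1 also marks other innate lymphocytes, which this gate does not separate from NK cells. The 3 libraries held 9445914 to 15259236 UMIs in 3876 to 6036 barcodes, and median depths ran from 1591 UMIs in NK to 1900 in gamma-delta T barcodes. Levels are given as CPM, the UMIs of a gene per 1000000 UMIs summed over a class in 1 library. The NK class had UMIs of all 7 genes of an NK marker list, of which Ncr1 is fixed by the gate, at 7757 to 8877 CPM in sum by library. That sum does not single out NK cells, since it includes genes that myeloid cells share and was 8708 to 10437 CPM in neutrophils. The summed level of 5 general T-cell markers was 395 to 449 CPM in NK and 4519 to 4710 CPM in CD8 barcodes. A list of 11 monocyte and macrophage markers summed to 1080 to 1696 CPM in NK, 3596 to 6025 in CD8, 2917 to 4442 in conventional CD4 and 630 to 831 CPM in gamma-delta T sums. At least 3 different markers of 1 myeloid, epithelial or B-cell class were present in 12.6% of NK, 20.9% of CD8, 19.1% of conventional CD4, 22.9% of regulatory and 8.72% of gamma-delta T barcodes. Only these are meant below by barcodes that carry myeloid or epithelial markers. The other barcodes can still hold such transcripts. Pairs of libraries shared 24 to 36 barcode sequences, of which 1 was a lymphocyte barcode.

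Summed over the 26 members, the family reached 3962 ± 551 CPM in NK barcodes (SD, n = 3 libraries). It reached 1141 ± 165 CPM in CD8, 631 ± 43.1 in gamma-delta T, 493 ± 344 in conventional CD4 and 230 ± 207 in regulatory T barcodes. Of the 26 members, 19 had their highest mean level in NK barcodes, 3 in monocytes or macrophages (Klra2, Klrb1 and Klrg2), 1 in regulatory T barcodes (Klrg1) and 1 in plasmacytoid dendritic barcodes (Klra17). Some of these places rest on few UMIs: Klra10, Klrc3, Klra4 and Klra9 had 1, 5, 8 and 10 in NK barcodes, and Klrb1 had 2 in macrophages. The share of all genes that are highest in NK barcodes was not counted, so the 19 describe the members only. Klra6 and Klra8 had no UMI in any class. Of the members, 16 had at least 20 UMIs over the 5 lymphocyte classes. All 26 lie on chromosome 6 of GRCm38, and 24 of them fall in 1 interval of 2638 kb, chr6:128609227-131247362, the NK gene complex. The exceptions are Klrg2 and Klrg1.

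**Figure D1:**
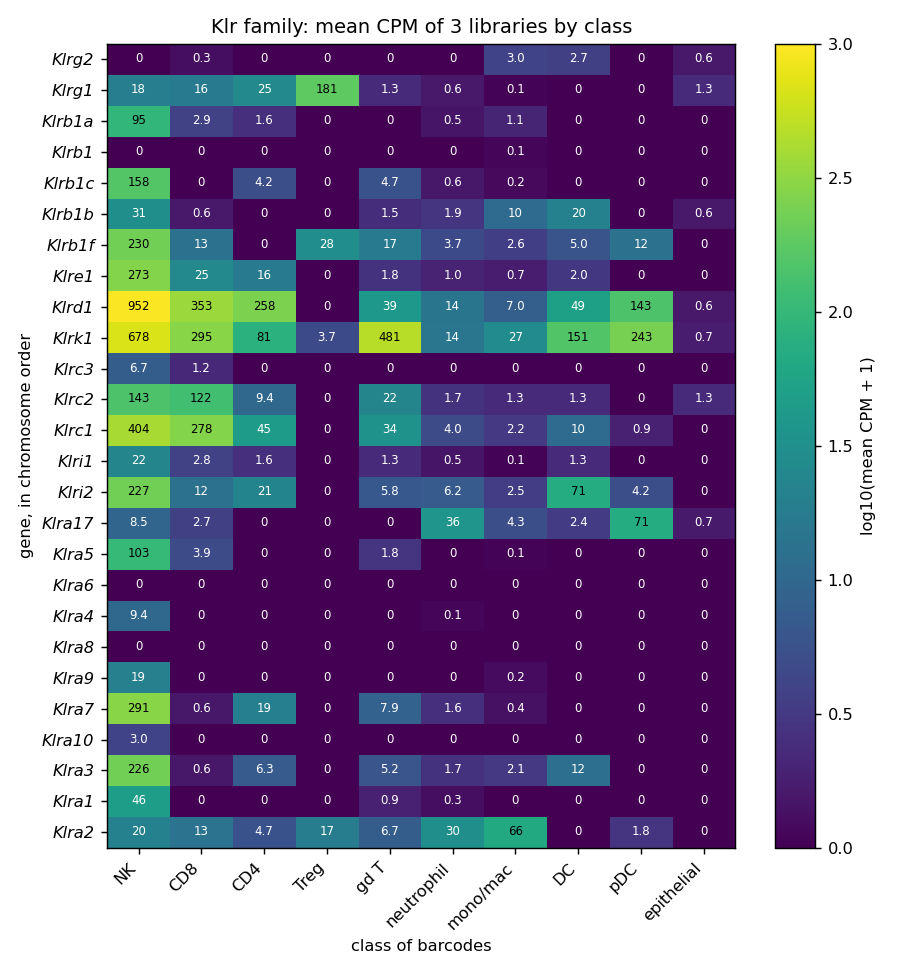
Mean CPM over the 3 libraries for the 26 members (vertical axis, in chromosome order) in 10 classes of barcodes (horizontal axis), coloured by log10 of the mean CPM with 1 added. The NK column holds the highest value for 19 members, some of them on few UMIs, while Klra2, Klra17 and Klrg1 peak in other columns.

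CD94 and its NKG2 partners were shared between NK and CD8 barcodes, but not in equal measure. Klrd1 (CD94, chr6:129591782-129598775) stood at 1088, 815 and 952 CPM in the NK sums of replicates 1, 2 and 3. In CD8 sums it stood at 300, 485 and 273 CPM, so that the lowest NK library lay above the highest CD8 library. The fitted difference was 1.46 on the log2 scale (SE 0.23, adjusted p = 5.23e-05, edgeR quasi-likelihood test). Klrc1, the inhibitory NKG2A chain (chr6:129666015-129678973), had 413, 278 and 521 CPM in NK and 240, 293 and 301 CPM in CD8 sums, and these ranges overlapped. Its difference was 0.48 (SE 0.23, adjusted p = 0.243), and 0.84 without replicate 2, where it passed (adjusted p = 0.0372). Klrc2, the activating NKG2C chain, had 153, 110 and 166 CPM in NK and 99.2, 136 and 132 CPM in CD8 sums. Its difference was 0.14 (SE 0.27, adjusted p = 0.854), which leaves room for a difference of either sign.

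Gamma-delta T barcodes carried little of the same receptor. Klrd1 stood there at 47.3, 24.1 and 45.8 CPM, and the NK level was higher by 4.45 on the log2 scale (SE 0.29, adjusted p = 7.49e-12, edgeR). Klrc1 at 33.7 ± 14.8 CPM and Klrc2 at 22.0 ± 13.2 CPM (SD, n = 3) were also below NK, by 3.41 (SE 0.31, adjusted p = 5.38e-09) and 2.50 (SE 0.38, adjusted p = 1.96e-05) on the log2 scale. Klrc3, the NKG2E chain, had 5 UMIs in NK and 3 in CD8 barcodes and was not tested. Klrc1 and Klrc2 share sequence: 38.6% of the distinct 50-base stretches of Klrc1 transcripts also occur in another gene, mostly in Klrc2. Their separate levels are therefore less certain. Klrd1 and Klrk1 share none.

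Conventional CD4 barcodes showed Klrd1 at 301, 371 and 102 CPM, a range that overlapped that of CD8 barcodes, and the difference between these classes was 0.49 (SE 0.28, adjusted p = 0.623, edgeR). Without barcodes that carry myeloid or epithelial markers it was 0.76 and passed (adjusted p = 0.0490). The 97 Klrd1 UMIs of the CD4 class came from 36 of 131 barcodes. Nkg7, a cytotoxic granule membrane gene, had a UMI in 80.6% of those 36 and in 38.9% of the other 95 CD4 barcodes, with median depths of 2180 and 1657 UMIs. In regulatory T barcodes no Klrd1 UMI was found in 48 barcodes, which allows up to 6.25% of barcodes with a UMI and does not bound the share of cells that express the gene. Against the CD4 class this is a level at least 13.9-fold lower, counted over the 3 libraries against a floor of 3 UMIs over the class. The member was called lower (adjusted p = 0.0128, edgeR), but that p rests on 1 regulatory T sum, from replicate 2, assumed to vary like the other classes.

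NKG2D followed another order. Klrk1 (chr6:129610323-129623864) reached 791, 592 and 650 CPM in NK sums and 494, 498 and 451 CPM in gamma-delta T sums. All 3 NK libraries lay above all 3 gamma-delta T libraries, but the difference of 0.47 (SE 0.22) did not pass the test (adjusted p = 0.19, edgeR). Without the barcodes that carry myeloid or epithelial markers it was 0.53 and passed (adjusted p = 0.0312). CD8 sums had 258, 276 and 349 CPM of Klrk1, below NK by 1.21 on the log2 scale (SE 0.22, adjusted p = 0.000382). Conventional CD4 sums had 90.2, 141 and 12.7 CPM, and the single regulatory T UMI gave no level above the floor of 3 UMIs. Klrk1 was the 1 member called higher in gamma-delta T than in conventional CD4 barcodes, by 2.38 (SE 0.32, adjusted p = 6.85e-06).

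Gamma-delta T barcodes were also divided by genes of the IL-17 type. Klrk1 was 477 ± 19.4 CPM in the 369 barcodes with a UMI of an IL-17-type gene and 492 ± 42.5 CPM in the other 193, with overlapping libraries. Klrd1 was lower in the former, at 23.9, 15.8 and 27.4 CPM, than in the latter, at 93.1, 50.4 and 83.1 CPM, with no overlap between libraries. These subsets were chosen after values had been seen and were not tested.

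**Figure D2:**
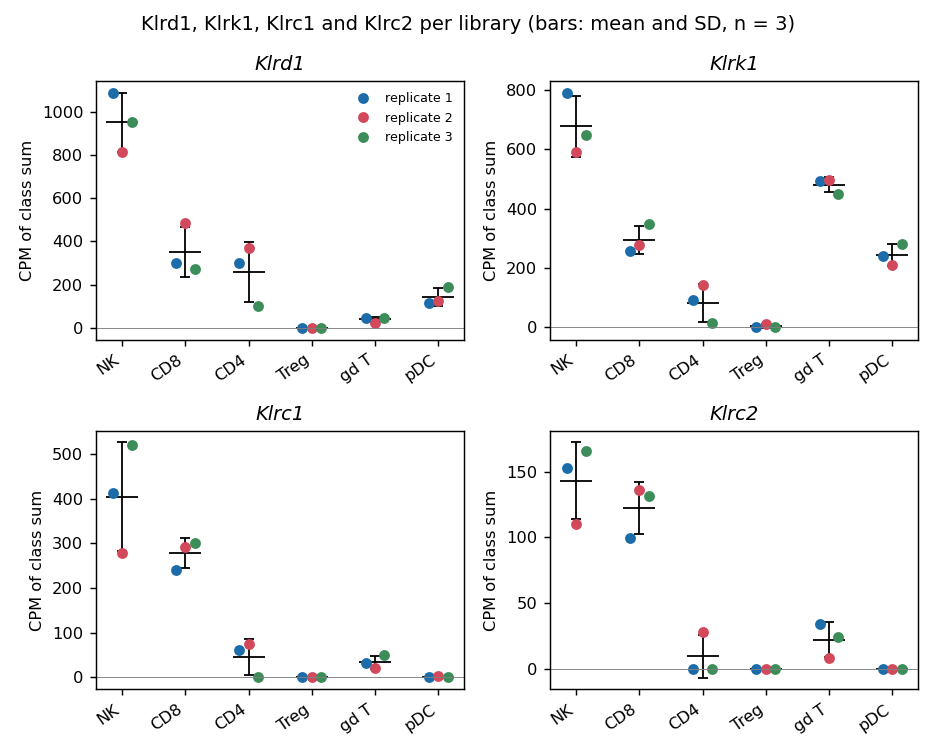
CPM of the class sum (vertical axis) for Klrd1, Klrk1, Klrc1 and Klrc2 in 6 classes (horizontal axis), with 1 point per library and bars for the mean and SD (n = 3). Gamma-delta T sums sit at 451 to 498 CPM for Klrk1 but at 24.1 to 47.3 CPM for Klrd1, and regulatory T sums are at or near 0 in all 4 panels.

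Of the NKR-P1 genes, Klrb1a, Klrb1b, Klrb1c and Klrb1f were called higher in NK than in CD8 barcodes. Klrb1c, whose product carries the NK1.1 epitope in some strains (chr6:128778485-128789215), had 216, 99.1 and 159 CPM in NK sums and no UMI in 731 CD8 barcodes. The NK level was at least 94.9-fold higher, counted against 3 UMIs over the CD8 class (adjusted p = 7.25e-10, edgeR). Klrb1a had 53 UMIs in NK and 5 in CD8 barcodes, a log2 difference of 5.05 (SE 0.58, adjusted p = 1.03e-06). Klrb1f, an activating receptor for Clec2 proteins, had 243, 168 and 280 CPM in NK and 25.4, 6.89 and 5.57 CPM in CD8 sums. Its difference was 4.33 (SE 0.34, adjusted p = 1.35e-09). Klrb1b, the inhibitory NKR-P1B, had 16 UMIs in NK and 1 in CD8 barcodes, a ratio of 56.2 with a 95% counting interval of 8.74 to 2359, and it was called (adjusted p = 0.00185). Klrb1 itself had 2 UMIs in monocytes or macrophages and 2 in barcodes with Cd3e as the only gate gene.

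Klre1 and its partner Klri2 were both higher in NK than in CD8 barcodes, and their CD8 UMIs were unevenly spread over the libraries. Klre1 (chr6:129577905-129585827) had 279, 284 and 257 CPM in NK sums. In CD8 sums it had 18.5, 40.5 and 14.9 CPM, and 47 of its 63 UMIs came from replicate 2. Klri2, the activating partner, had 315, 215 and 151 CPM in NK and 2.31, 31.9 and 1.86 CPM in CD8 sums. The differences were 3.34 (SE 0.30, adjusted p = 8.39e-09) and 3.79 (SE 0.41, adjusted p = 1.78e-07) on the log2 scale. Klri1, the inhibitory partner, had 15 UMIs in NK and 7 in CD8 barcodes and was not tested.

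Among the lymphocyte classes, the lymphoid Ly49 genes were found mostly in NK barcodes. Summed over the 9 Klra genes other than Klra2 and Klra17, NK sums held 701, 620 and 771 CPM and CD8 sums 0, 9.47 and 5.57 CPM. Klra7 (Ly49G, an inhibitory receptor, chr6:130218605-130233322) had 288, 193 and 393 CPM in NK sums, with 154 UMIs in 63 of 309 barcodes. CD8 barcodes had 2 Klra7 UMIs, a ratio of 271 with a 95% counting interval of 73.7 to 2255 (adjusted p = 9.79e-10, edgeR). Klra3 (Ly49C, inhibitory, chr6:130323289-130337574) had 171, 242 and 264 CPM in NK sums and 2 UMIs in CD8 barcodes, a ratio of 249.6 with an interval of 67.8 to 2081 (adjusted p = 5.16e-12). Klra5 (Ly49E) was steady over the NK libraries, at 108, 102 and 98.2 CPM, although its 62 UMIs came from 20 barcodes. Klra1 (Ly49A) ranged from 7.55 CPM in replicate 3 to 80.9 CPM in replicate 1 and had no UMI in CD8 barcodes, so it was at least 32.8-fold higher in NK (adjusted p = 9.5e-05).

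The other Ly49 genes were rare in NK barcodes: Klra9 had 10 UMIs, Klra4 8 and Klra10 1, and Klra6 and Klra8 none. The Ly49 gene content differs between mouse strains. The counts were made against mm10, which represents C57BL/6J, and the labels do not give the strain of the mice, so a level of 0 can mean an absent gene or an unexpressed one, and these cannot be told apart. Of the distinct 50-base stretches of the transcripts, 31.5% of Klra9, 20.7% of Klra3 and 12.3% of Klra7 also occur in another gene, so levels of single Ly49 genes are less certain than their sum. Klra2, Klra17 and Klrd1 share none.

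Klra2 and Klra17 lie at the ends of the same Ly49 cluster, but the first was found mainly in monocytes, macrophages and neutrophils and the second in plasmacytoid dendritic barcodes and neutrophils (values below), while Klra3 and Klra7 were found in NK barcodes. Their promoter windows (250 bases before to 50 after an annotated start, RefSeq, GRCm38.p6, minus strand) are shown to compare the 2 patterns. Capitals mark each match to GAGGAA or its reverse TTCCTC, the core of a purine-rich box of the kind that the myeloid factor PU.1 binds. The windows are chr6:130337577-130337876 for Klra3, chr6:130233273-130233572 for Klra7, chr6:131247313-131247612 for Klra2 and chr6:129876623-129876922 for Klra17.
Klra3: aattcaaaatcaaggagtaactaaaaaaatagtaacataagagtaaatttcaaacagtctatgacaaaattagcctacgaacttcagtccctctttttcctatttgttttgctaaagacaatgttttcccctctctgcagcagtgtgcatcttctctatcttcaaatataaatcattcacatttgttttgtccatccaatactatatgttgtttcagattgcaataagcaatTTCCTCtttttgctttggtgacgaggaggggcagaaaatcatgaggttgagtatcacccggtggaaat
Klra7: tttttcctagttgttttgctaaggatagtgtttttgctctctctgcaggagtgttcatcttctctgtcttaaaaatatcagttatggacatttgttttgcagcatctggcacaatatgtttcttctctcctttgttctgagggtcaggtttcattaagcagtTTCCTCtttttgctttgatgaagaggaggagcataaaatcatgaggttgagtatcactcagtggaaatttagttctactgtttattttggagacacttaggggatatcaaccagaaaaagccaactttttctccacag
Klra2: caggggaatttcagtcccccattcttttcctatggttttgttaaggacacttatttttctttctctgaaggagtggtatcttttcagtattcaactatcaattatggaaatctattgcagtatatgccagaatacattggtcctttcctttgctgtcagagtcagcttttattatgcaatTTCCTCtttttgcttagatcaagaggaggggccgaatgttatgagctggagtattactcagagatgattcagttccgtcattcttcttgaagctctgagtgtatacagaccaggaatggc
Klra17: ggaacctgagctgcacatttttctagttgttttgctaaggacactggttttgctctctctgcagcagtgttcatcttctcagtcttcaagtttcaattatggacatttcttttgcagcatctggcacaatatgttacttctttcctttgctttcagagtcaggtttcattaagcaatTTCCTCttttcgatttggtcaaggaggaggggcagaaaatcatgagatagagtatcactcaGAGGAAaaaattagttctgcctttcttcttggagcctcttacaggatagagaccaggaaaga
All 4 windows hold the same run of 11 bases, tTTCCTCtttt, which starts 19 bases before the annotated start in Klra3, 89 in Klra7, 71 in Klra2 and 74 in Klra17. A further annotated window of Klra7, not shown, holds no match to GAGGAA on either strand. Between the windows shown, identity over the aligned columns was 76.1% for Klra7 and Klra3, the pair found in NK barcodes, and 75.8% for Klra17 and Klra2, the pair found in myeloid barcodes. Across these pairs it was 82.8% for Klra17 and Klra7, 72.8% for Klra17 and Klra3, 72.1% for Klra7 and Klra2 and 64.8% for Klra3 and Klra2. Of the 4 cross pairs, 3 were thus less alike than both pairs within a class and 1 was more alike. On either strand, GAGGAA occurs in 28.3% of 32851 promoter windows of the same length and in 17 of the 28 windows of the 23 members that could be matched. RUNX-type TGTGGT, on either strand, occurs in 16.8% of all windows. It was found in 9 of the 28, among them every window of Klrc1, Klrc2, Klrc3 and Klrk1, and in none of the 4 shown. T-box-type GGTGTG, on either strand, occurs in 19.0% of all windows and in 7 of the 28. The 28 windows come from related genes and some of them overlap, so they are not independent, and these shares were not tested. A match is a description of these letters, not a bound site.

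Over the family, 15 of the 26 members passed the filter on low counts in the joint fit of the lymphocyte classes, and the other 11 were not tested. In NK against CD8 barcodes 12 of these 15 were called higher, none lower and 3 not called (Klrg1, Klrc1 and Klrc2). Of all 5244 genes tested, 9.5% were called in either direction, 4.33% as higher and 5.17% as lower. The median log2 difference was 4.33 over the tested members and -0.01 over all genes. All 12 were higher in 3 of 3 libraries with no overlap between the classes. In NK against gamma-delta T barcodes 14 of the 15 were called higher and Klrk1 was not, where 12.7% of all genes were called in either direction, 6.54% as higher and 6.18% as lower. There the median was 4.92 over the members and 0.0037 over all genes, and 13 of the 14 were higher in 3 of 3 libraries with no overlap. How many of all genes separate by library in this way was not counted. The counts of members without overlap therefore add no support to the calls. Both member medians were the same with bounds in place of fitted values. Both contrasts share the NK sums, so they are not independent of each other. Since the filter passes a member that is high in NK alone, these counts describe the tested members and not the family.

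Single values in the second contrast ranged widely. Klre1 had 2 UMIs in gamma-delta T barcodes, a ratio of 163 with a 95% counting interval of 44.3 to 1355 (adjusted p = 2.68e-10, edgeR). Klra7 had 9 gamma-delta T UMIs, all in replicate 1 and in 2 barcodes, and the NK level was higher by 5.18 on the log2 scale (SE 0.54, adjusted p = 4.6e-08). Klrg1 was the weakest call, with 11 UMIs in NK and 1 in gamma-delta T barcodes (adjusted p = 0.029). It was lost without replicate 1 (adjusted p = 0.0639) and without replicate 3 (adjusted p = 0.345). Klrb1b was lost without replicate 1 (adjusted p = 0.0689), as was Klra1 (adjusted p = 0.0856).

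**Figure D3:**
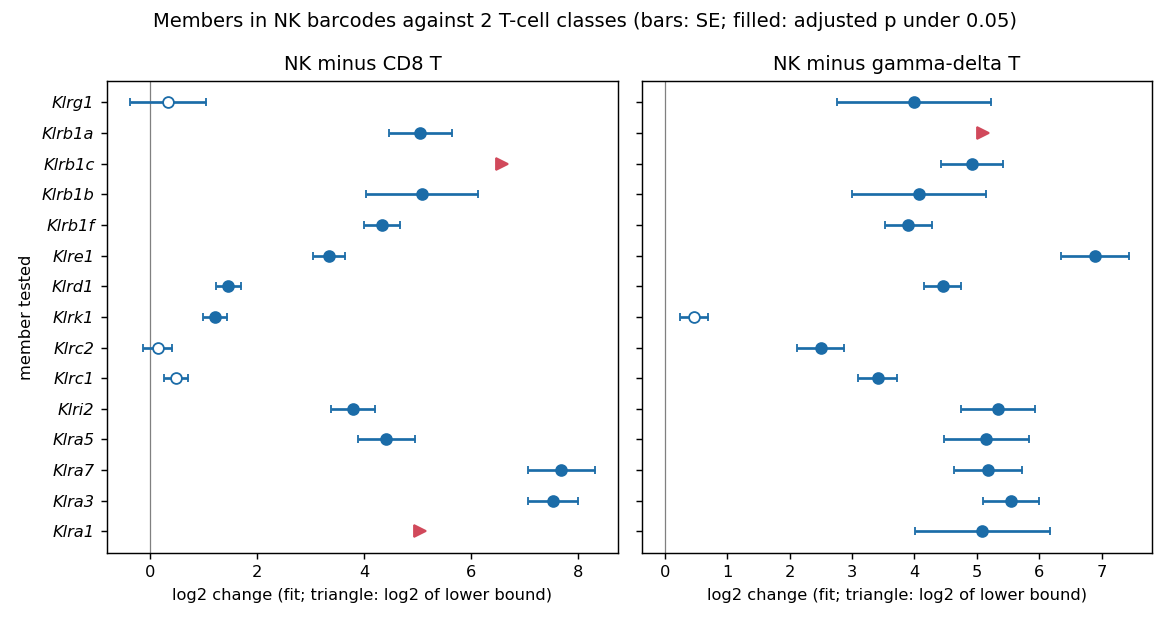
Log2 difference (horizontal axis) of the 15 tested members (vertical axis) between NK and CD8 barcodes on the left and NK and gamma-delta T barcodes on the right. Bars are SE, filled points passed an adjusted p of 0.05, and triangles mark the log2 of a lower bound where the T-cell class has no UMI. Klrc1, Klrc2 and Klrg1 stay near 0 on the left and Klrk1 on the right.

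Within T cells, CD8 barcodes carried more of the NKG2 receptors than conventional CD4 barcodes. Of the 15 tested members, 3 were called higher in CD8 and 1 lower, where 1.7% of all genes were called, 0.953% as higher and 0.744% as lower. Klrc1 had 60.2, 75.2 and 0 CPM in CD4 sums and was higher in CD8 by 2.40 on the log2 scale (SE 0.39, adjusted p = 0.000417, edgeR). Klrc2 had CD4 UMIs in replicate 2 alone (6 UMIs) and was higher in CD8 by 2.80 (SE 0.53, adjusted p = 0.00237). Klrk1 was higher by 1.64 (SE 0.32, adjusted p = 0.00364), and by 1.11 without replicate 3, where it no longer passed (adjusted p = 0.0935). The member called lower was Klra7, with 2 UMIs in CD8 and 12 in CD4 barcodes (adjusted p = 0.0316). Its 12 CD4 UMIs came from 5 barcodes of replicate 2, and its 2 CD8 UMIs came from the same library. Without replicate 2 neither class had a Klra7 UMI, so no difference could be measured.

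Replicate 2 stood apart in the CD4 class for several members. All CD4 UMIs of Klre1 (10), Klra7 (12), Klra3 (4), Klra2 (3) and Klrc2 (6), and 11 of 12 of Klri2, came from it, while it held 80 of the 131 CD4 barcodes and 212853 of their 324891 UMIs. In gamma-delta T against conventional CD4 barcodes 1 member was called higher (Klrk1) and 2 lower (Klrd1 and Klre1), where 10.5% of all genes were called, 4.88% as higher and 5.59% as lower. Klrd1 was lower by a log2 difference of -2.50 (SE 0.36, adjusted p = 2.01e-05). Klre1, with 2 against 10 UMIs, was lower with a ratio of 0.0553 and a counting interval of 0.00589 to 0.259 (adjusted p = 0.0256). Without replicate 2 no CD4 UMI of Klre1 was left, and it was not called (adjusted p = 0.843, edgeR).

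Regulatory T barcodes had 1 member in any quantity. Klrg1, an inhibitory receptor for E-cadherin that marks a differentiated regulatory subset in tissues, had 40.0, 121 and 382 CPM in the regulatory sums of replicates 1, 2 and 3, from 1, 11 and 9 UMIs. The sums rest on 7, 32 and 9 barcodes, and 10 of the 48 barcodes held the 21 UMIs. CD4 sums had 5 Klrg1 UMIs, CD8 sums 31, and NK sums 11 UMIs. Only replicate 2 had the 10 regulatory barcodes that a sum needed to enter the fit, so the regulatory class is 1 sum assumed to vary like the others. Klrg1 was higher there than in CD4 barcodes by 2.95 (SE 1.05) without passing (adjusted p = 0.486, edgeR). In this contrast 1 of the 15 tested members was called, Klrd1 as lower, where 0.191% of all genes were called, 0.0953% in each direction. Klrk1, Klrc1 and Klre1 had 1, 0 and 0 UMIs in regulatory barcodes.

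No member passed the test between CD8 barcodes with and without a UMI of Gzmb, the gene of granzyme B. CD8 barcodes were thinned to 1200 UMIs and split into 154 with and 418 without a Gzmb UMI, which left out 159 shallower barcodes. Klrd1 stood at 461 ± 72.4 CPM with and 506 ± 191 CPM without Gzmb, Klrk1 at 473 ± 162 and 372 ± 84.9, and Klrc1 at 437 ± 232 and 323 ± 61.2 (SD, n = 3). Klrc2 stood at 99.2, 325 and 236 CPM with and at 73.8, 149 and 180.0 CPM without Gzmb, and was higher in 3 of 3 libraries. Thinned to 1700 UMIs, it was lower with Gzmb in replicate 1, at 78.4 against 130.7 CPM. None of the 4 tested members passed, where 5.5% of 1037 genes were called, 1.74% as higher and 3.76% as lower. With edgeR 1 of the 4 had an unadjusted p under 0.05, Klrc2 with 0.76 (SE 0.31, unadjusted p = 0.0188, adjusted p = 0.17), and DESeq2 called none. Klrg1 was not tested. It had 11 UMIs with and 2 without Gzmb, a level of 99.2, 56.5 and 31.4 CPM against 0, 3.32 and 9.47 CPM, with no overlap. Thinned to 1700 UMIs, it had 19.6, 26.7 and 47.1 CPM with and 39.2, 6.39 and 17.6 CPM without Gzmb, and these ranges overlapped.

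Among CD8 barcodes thinned to 1200 UMIs, those with 1 receptor chain more often held a UMI of another. In these CD8 barcodes Klrd1 had a UMI in 50% of the 166 with Klrc1 and in 29.1% of the 406 without. By library the shares were 42.3%, 51.6% and 51.1% with and 24.2%, 33.0% and 25% without. Klrc2 was found in 26.5% of CD8 barcodes with Klrc1 and in 9.36% of those without, and Klrk1 in 46.4% and 26.1%, each in the same direction in 3 of 3 libraries. In NK barcodes Klrd1 had a UMI in 70.0% of the 70 with Klrc1 and in 61.5% of the 161 without. Klrk1 went the other way there, at 41.4% of NK barcodes with Klrc1 and 57.1% of those without, in 2 of 3 libraries. These shares were not tested, and the sequence that Klrc1 and Klrc2 share can move their pair.

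**Figure D4:**
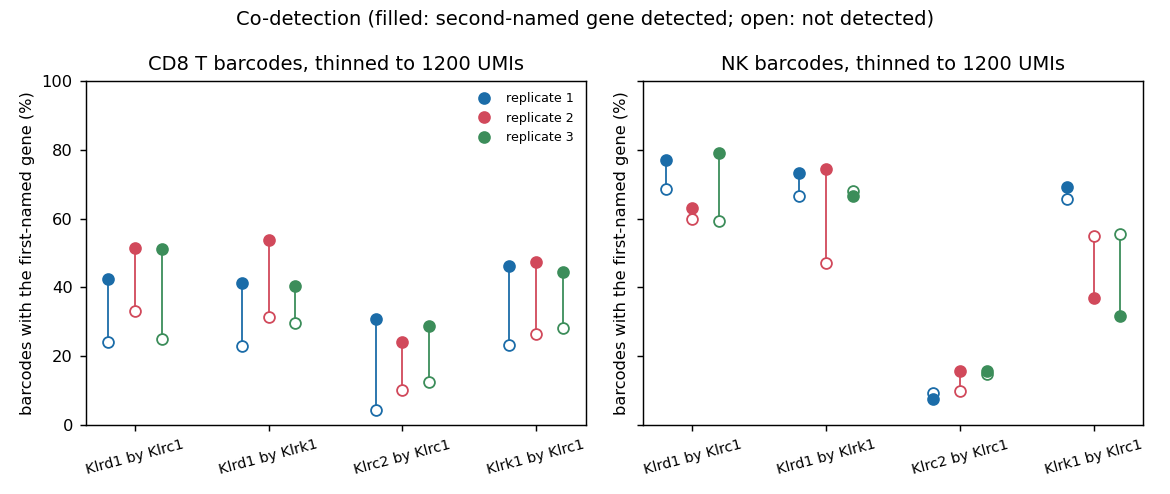
Percent of thinned barcodes (vertical axis) with a UMI of the first-named gene, for barcodes with (filled) and without (open) the second-named gene, per library, in CD8 on the left and NK on the right. In CD8 barcodes the filled point lies above the open one in 3 of 3 libraries for all 4 pairs.

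Ly49 genes were detected in part of the NK barcodes and mostly 1 at a time. Of 231 thinned NK barcodes, 134 had no UMI of the 9 lymphoid Ly49 genes, 68 had 1 gene, 25 had 2 and 4 had 3 or more. Of 572 thinned CD8 barcodes 3 had 1 such gene. Klra3 was found in 29.5% of 44 NK barcodes with Klra7 and in 19.8% of 187 without, with the opposite order in replicate 1 (12.5% against 18.9%). Barcodes with no UMI of a gene at this depth may still have expressed it. The number of Ly49 genes that a cell expressed therefore cannot be read from these counts.

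In myeloid classes a different set of members appeared. Klra2 (Ly49B) had 44.2, 94.7 and 58.4 CPM in the monocyte or macrophage sums and 28.1, 32.9 and 30.1 CPM in the neutrophil sums, so all 3 macrophage libraries lay above all 3 neutrophil libraries. NK sums had 36.0, 16.5 and 7.55 CPM from 11 UMIs. Its 906 macrophage UMIs came from 627 of 2642 barcodes, and no UMI was found in 122 epithelial barcodes, which allows up to 2.46% of barcodes with a UMI at a median depth of 11666.5 UMIs. The Klra2 level was 67.6 ± 29.0 CPM in the 1873 macrophage barcodes with UMIs of all 3 C1q genes and 67.4 ± 35.7 CPM in the 416 without any. Detection of the C1q genes also depends on depth.

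Klra17 (Ly49Q), an inhibitory receptor known from plasmacytoid dendritic cells and neutrophils, had 25.2, 80.6 and 109 CPM in plasmacytoid dendritic sums and 28.7, 37.4 and 41.3 CPM in neutrophil sums. Macrophage sums had 4.27 ± 4.15 CPM. The ranges of the first pair overlapped through replicate 1. Among neutrophils both genes were higher in the 580 barcodes with a UMI of Retnlg, a gene of blood neutrophils, than in the other 4887. Klra17 had 74.4, 98.7 and 89.4 CPM with and 21.0, 28.2 and 33.6 CPM without Retnlg, and Klra2 57.8, 76.4 and 54.2 against 23.1, 26.3 and 26.3 CPM. Neither pair of ranges overlapped, and the median depths were 1261 and 941 UMIs. The split was chosen after values had been seen and was not tested.

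Klri2 had a second place in dendritic barcodes, at 73.7, 59.8 and 78.7 CPM. Of its 38 dendritic UMIs, 27 fell in the 32 barcodes with Ccr7 or Fscn1 as the only subset markers, which mark migratory dendritic cells (166, 210.0 and 274 CPM). No Klri2 UMI was found in epithelial barcodes. Klrb1b had 7.07, 10.4 and 12.9 CPM in macrophage sums, with 128 UMIs in 109 barcodes, below its NK sums (27.0, 19.3 and 45.3 CPM) in 3 of 3 libraries. In dendritic sums it had 30.7, 7.97 and 21.5 CPM from 10 UMIs, a range that overlapped that of NK. Klrg2 had 39 UMIs in macrophages.

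**Figure D5:**
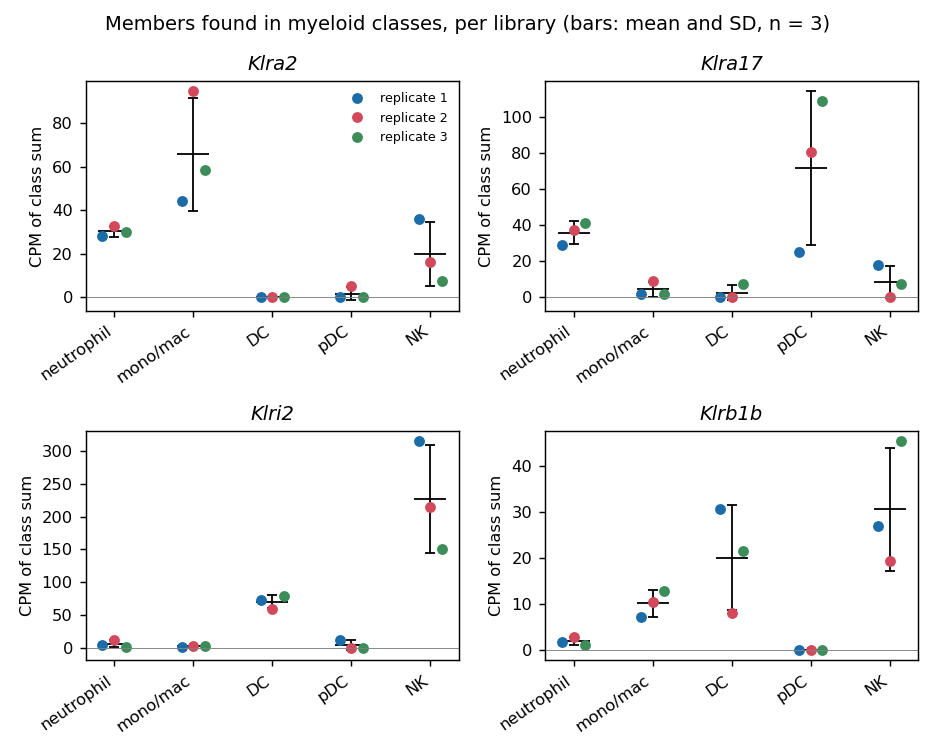
CPM of the class sum (vertical axis) for Klra2, Klra17, Klri2 and Klrb1b in 4 myeloid classes and NK (horizontal axis), with 1 point per library and bars for the mean and SD (n = 3). Klra2 is highest in monocytes or macrophages, Klra17 in plasmacytoid dendritic barcodes, and Klri2 reaches 59.8 to 78.7 CPM in dendritic barcodes.

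Plasmacytoid dendritic barcodes also held Klrk1 and Klrd1, with next to none of the Klrc chains that pair with CD94. Klrk1 stood at 239, 210.0 and 281 CPM and Klrd1 at 113, 126 and 190.0 CPM, while Klrc1 had 1 UMI and Klrc2 none. The adaptor genes of NKG2D were present there, Hcst at 169 ± 67.3 CPM and Tyrobp at 6080.0 ± 649.7 CPM (SD, n = 3). Of the 5 T-cell markers Cd3e was at 0 by the gate, and the summed level was 0 to 40.3 CPM by library. The 2 CD8 genes, Cd8a and Cd8b1, summed to 1498 to 2688 CPM there, above the 1225 to 1414 CPM of CD8 barcodes. A list of 5 B-cell and plasma-cell markers summed to 138 to 674 CPM. The part of other cells in these levels was not tested. In the 175 of 181 barcodes with no T-cell marker UMI, Klrk1 stood at 243 ± 36.4 CPM and Klrd1 at 148 ± 43.4 CPM, as high as in the whole class. Of the 7 NK markers, Ncr1 was at 0 by the gate and Eomes, Gzma and Prf1 were at 0 as well, while the list summed to 6093 to 7440 CPM, most of it Tyrobp. After thinning to 1200 UMIs, Klrk1 was found in 27.0% ± 5.92 of plasmacytoid dendritic barcodes and in 0 of 117 epithelial barcodes, which allows up to 2.56% with a UMI at that depth. Before thinning it was found in 44.2% of plasmacytoid dendritic barcodes at a median depth of 2813 UMIs and in 1 of 122 epithelial barcodes at a median depth of 11666.5 UMIs.

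Dendritic barcodes had Klrk1 at 55.3, 175 and 222 CPM, and macrophages at 15.2, 37.4 and 28.0 CPM. In the 2400 macrophage barcodes with no T-cell marker UMI it was 24.4 ± 10.9 CPM, against 26.9 ± 11.2 CPM in the whole class, and epithelial sums had 0.696 ± 1.21 CPM. In the neutrophil class Klrk1 was 13.9 ± 11.2 CPM, and 9.05 ± 6.77 CPM without barcodes that held a T-cell marker UMI. Klrd1 was 13.7 ± 9.88 and 9.92 ± 5.04 CPM there. No doublet caller was run, and the part of mixed droplets in these low levels was not tested. Ordered by mean, Klrk1 ran from NK through gamma-delta T, CD8, plasmacytoid dendritic, dendritic, conventional CD4, macrophage, neutrophil and regulatory T to epithelial barcodes. NK, gamma-delta T and CD8 did not overlap with the class that followed, except that CD8 overlapped with plasmacytoid dendritic barcodes, and all later neighbours overlapped.

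Genes that work with the family moved with it only in part. Of 12 tested adaptor and signalling genes, 2 were higher in NK than in CD8 barcodes and none lower, where 4.33% of all genes were called higher: Tyrobp, which encodes DAP12, by 1.18 (SE 0.15, adjusted p = 3.47e-06, edgeR) and Sh2d1b1 by 1.74 (SE 0.53, adjusted p = 0.0345). Tyrobp stood at 2220, 2817 and 2478 CPM in NK, 1125 ± 61.6 in CD8 and 341 ± 47.0 in gamma-delta T sums. It is also abundant in myeloid cells (4718 ± 461 CPM in neutrophils), and NK sums held 2489 to 3158 CPM of a list of 8 neutrophil markers, against 1239 to 2309 CPM over the CD8 and gamma-delta T sums. The monocyte and macrophage markers lay the other way between NK and CD8, at 1080 to 1696 and 3596 to 6025 CPM. The part of these in the Tyrobp difference was not tested. Against gamma-delta T barcodes 7 of the 12 were higher in NK and 1 lower, where 6.54% of all genes were called higher and 6.18% lower. Lck, by 3.83 (SE 0.24), and Sh2d1a, by 3.66 (SE 0.35), were among the higher. Hcst, which encodes DAP10, was higher in CD8 than in conventional CD4 barcodes by 0.73 (SE 0.16, adjusted p = 0.0176).

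Of 8 other NK receptors, Cd244 was higher in NK than in CD8 by 2.85 (SE 0.32, adjusted p = 3.79e-07, edgeR) and Fcgr3, an Fc receptor, was lower by a log2 difference of -0.89 (SE 0.24, adjusted p = 0.0153). Fcgr3 is also a myeloid gene (709, 647 and 746 CPM in monocytes or macrophages), and the monocyte and macrophage markers were lower in NK than in CD8 sums too, a part in this result that was not tested. Of 8 cytotoxic genes, 2 were higher and 1 lower in NK, where 4.33% of all genes were called higher and 5.17% lower. Gzma differed by 5.26 (SE 0.32) and Ctsw by 1.02 (SE 0.17), and Gzmk had a difference of -3.86 (SE 0.42). Of 8 NK maturation and tissue genes, Tbx21 (2.15, SE 0.44) and Eomes (1.45, SE 0.29) were higher and Cxcr6 (-2.69, SE 0.26) lower. Against gamma-delta T barcodes 7 of the 8 cytotoxic genes were higher and none lower, against 6.54% and 6.18% of all genes, and Nkg7 differed by 5.45 (SE 0.24). In gamma-delta T against conventional CD4 barcodes 5 of these 8 were lower and none higher, against 5.59% and 4.88% of all genes. In CD8 against conventional CD4 barcodes 4 were higher and none lower, against 0.953% and 0.744% of all genes. Gzmk, by 2.76 (SE 0.43), and Gzmb, by 2.37 (SE 0.41), were among these 4.

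Among 6 tested ligands, Clec2i, which encodes a ligand of the Klrb1f product, was itself higher in NK than in CD8 barcodes by 1.70 (SE 0.54, adjusted p = 0.0429, edgeR). The other 5 were not called, where 4.33% of all genes were called higher and 5.17% lower. Cdh1, the E-cadherin that Klrg1 binds, had 53.4 ± 5.77 CPM in epithelial barcodes 37.9 ± 9.65 CPM in NK and 96.6 ± 7.44 CPM in plasmacytoid dendritic sums. The NKG2D ligand gene Raet1e had 16.2, 27.9 and 33.1 CPM in neutrophils and no UMI in epithelial barcodes, where a count of 0 allows up to 1.93 CPM. H60b, another NKG2D ligand gene, had 9.66 ± 1.32 CPM in CD8 and 15.4 ± 3.16 CPM in gamma-delta T sums and none in epithelial barcodes. These levels of RNA say nothing of surface protein.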

How the data were processed

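UMIs per gene and barcode were taken as counts from the deposited matrices of the 3 libraries, which the authors left as whole numbers. The tools named in the submitters' processing notes are Seurat and Cell Ranger, with the build mm10. Per the file headers the matrices come from software version 3.0.0; no other version is known here. The members, the lists, the class markers and the tests were chosen with earlier results of these data known.

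Of 14336 barcodes 14226 were kept: 22 had fewer than 200 genes, and mitochondrial UMIs exceeded 10% in 107. Lymphocyte gates needed 1 UMI of the gate genes, and 59 barcodes that met several gates and 1294 with Cd3e alone stayed out of the contrasts. Myeloid, epithelial and B-cell classes needed no Cd3e, Ncr1 or Foxp3, and at least 3 markers and more than of any other set, and 2531 barcodes fell in no class. Class names rest on these rebuilt gates. No doublet caller was run. Sums of at least 10 barcodes per library and class were fitted jointly over the 5 lymphocyte classes with edgeR 4.0.16 (limma 3.58.1, R 4.3.3): TMM, filterByExpr, the quasi-likelihood test, library as a block, and Benjamini-Hochberg adjustment over 5244 genes at 0.05. The classes of a library come from the same sorted tumour suspension, which is where the pairing comes from. Levels are CPM of class sums, and a class at 0 has a floor of 3 UMIs. Intervals are exact and cover counting error only; n of 3 libraries limits all tests. Shares of barcodes were compared after thinning to 1200 UMIs, the 25th percentile of depths over the 5 lymphocyte classes, rounded down. Members with at least 20 lymphocyte UMIs are named with values. From each list up to 4 called genes with the largest change, or the 2 lowest p where none was called, could be named; Raet1e, H60b, the subsets of a class and the myeloid levels were chosen with their values known. The fit was tested on simulated counts. Alternatives were DESeq2 1.42.0, library totals, no filter, no block, each library left out, stricter barcode filters, barcodes with myeloid or epithelial markers left out and, chosen after seeing the data, sums of at least 5 barcodes. Itgam was matched by its Ensembl identifier. Positions are from GENCODE on GRCm38. Python 3.11.15, numpy 2.4.6, scipy 1.17.1, pandas 2.3.3, Biopython 1.88 and matplotlib 3.10.9 were used.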

Additional observations from a re-analysis of the deposited data

How the results depend on the processing

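The counts of called members stayed within 1.5 times of the reported count under every alternative run, with 1 exception: without the filter on low counts 5 instead of 3 members were called in gamma-delta T against conventional CD4 barcodes. Over the runs that each left out 1 library, the counts lay between 11 and 12 for NK against CD8, 11 and 12 for NK against gamma-delta T, 3 and 4 for CD8 against CD4, 2 and 4 for gamma-delta T against CD4, at 1 for regulatory T against CD4 and at 0 for the Gzmb split. Without replicate 2 no regulatory T sum was left. Without library as a replicate block the counts were 12, 14, 4, 1, 3 and 0, and the block changed no count. Of 487 refits of single members, 452 kept their direction and call, 13 lost a call, 3 gained one and 19 turned in sign, of which 18 had not been called; the cause was not tested. Klra7 and Klra1 in both NK contrasts were lost with DESeq2 (adjusted p = 0.0526 and 0.497 against CD8, 0.245 and 0.618 against gamma-delta T). Klra7 in CD8 against CD4 was also lost with DESeq2 and with sums of at least 5 barcodes. Klre1 in gamma-delta T against CD4 was lost with DESeq2 too. The 1 called member that turned was Klre1 in gamma-delta T against CD4, at 2.54 without replicate 2 and -6.34 without replicate 1. Neither is a measured difference, since the former run had no CD4 UMI of Klre1 and the latter no gamma-delta T UMI. Signs also turned for Klrg1 in NK against CD8 (-0.29 to 0.91 without 1 library, -0.0450 without barcodes with myeloid or epithelial markers) and for Klrc2 (-0.0328 to 0.51 without 1 library, -0.17 without those barcodes). In CD8 against CD4 they turned for Klrg1 (0.13 without the filter, 0.0105 without the replicate block, -0.41 to 0.32 without 1 library) and Klre1 (-0.0243 with library totals, -0.0266 without the replicate block, -0.14 to 5.19 without 1 library, -0.00790 with sums of at least 5 barcodes). In gamma-delta T against CD4 they turned for Klrc2 (-0.0956 to 6.05 without 1 library) and Klrc1 (-1.37 to 1.30). Without replicate 2 no CD4 UMI of Klre1 or Klrc2 was left, so 5.19 and 6.05 are not measured differences. In the Gzmb split signs turned for Klrd1 (-0.47 to 0.10 without 1 library) and Klrc1 (-0.14 to 0.71 without 1 library, -0.0622 without thinning, -0.00827 when thinned to 1700 UMIs). The contrasts with CD4 and regulatory T barcodes rest on 324891 and 139328 UMIs over the libraries, and the regulatory T class on 1 sum.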

Other observations

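Klrd1-positive barcodes differed between classes in what else they held. Among gamma-delta T barcodes, Nkg7 had a UMI in 19.0% of the 42 with Klrd1 and in 2.31% of the 520 without, at median depths of 1892 and 1901.5 UMIs. Among CD8 barcodes Gzmb had a UMI in 31.9% of the 348 with Klrd1 and in 40.5% of the 383 without, and Cd8b1 in 74.1% and 62.4%, at median depths of 2089 and 1667 UMIs. Among NK barcodes Gzmb was found in 26.1% of the 230 with and in 13.9% of the 79 without, and Csf1r, a macrophage gene, in 2.17% and 11.4%. Barcodes with Cd3e as the only gate gene, which belong to no contrast, had Klrd1 at 162 ± 24.9 CPM, Klrk1 at 268 ± 49.0, Klrc1 at 105 ± 11.9 and Klrc2 at 76.4 ± 8.97 CPM (SD, n = 3), between the CD8 and conventional CD4 levels for Klrk1, Klrc1 and Klrc2. These values were not tested.

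NK barcodes with an Eomes UMI (52) and without (257) held Klrk1 at 857, 815 and 911 CPM and at 782, 552 and 543 CPM, with no overlap, and Klrd1 at 903 ± 210 and 941 ± 175 CPM, with overlap. The split was chosen after values had been seen.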
